A study of Mus musculus with 21 samples.

Results

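The 10 genes for digestive enzymes and a lipase cofactor of pancreatic acinar cells were followed here through every islet RNA-seq library of a mouse diet study. They were Prss2, Ctrb1, Cpa1, Cpb1, Cela1, Cela2a, Cela3b, Pnlip, Clps and Cel, chosen by symbol and matched to their Ensembl identifiers, and they made up 10 of the 55536 genes counted. All 10 passed the filter on low counts, which 27229 genes passed. The question was how much exocrine RNA each islet preparation carried, and whether any of the 10 genes left the pattern that the others shared.

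Male CBA mice were given a regular diet (RD), a high-fat diet (HFD) or a high-fat diet with O304 (HFD-O304) from 10 weeks of age, and their islets were isolated at the end of the diet. O304 is a small-molecule activator of the energy-sensing kinase AMPK and was given at 0.8 mg per g of high-fat diet. The diet period is stated as 9 weeks in the methods, while the age at isolation is stated elsewhere in the study as 20 weeks. Each group had 7 samples, and each sample was RNA of 150 hand-picked islets from a pool of 5 mice, so a value belongs to a pool and not to a mouse. No transgene is named in the labels, and the strain, tissue and isolation were shared by all groups. HFD-O304 replicate 1 was labelled HFD in its diet field and HFD-O304 in its title, and the title was followed. The libraries held 13809266 to 48922569 read pairs on genes. The tissue label fitted its markers, since 7 endocrine hormone and granule genes, insulin among them, took between 314663 and 367125 CPM (counts per 1000000 read pairs on genes).

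The exocrine pancreas surrounds the islets. Its acinar cells fill granules with protease precursors, lipases and amylase, which are released into the gut, where the precursors are activated. Islet endocrine cells make hormones in place of these enzymes, and enzyme transcripts in an islet library are commonly read as RNA from acinar cells that came along with the islets. The 10 genes include the precursors of trypsin (Prss2) and chymotrypsin (Ctrb1), of carboxypeptidases A and B (Cpa1, Cpb1) and of the elastases (Cela1, Cela2a, Cela3b). They further include pancreatic lipase (Pnlip), colipase (Clps), which anchors that lipase to fat droplets, and the bile salt-dependent lipase (Cel).

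Acinar cells switch these genes on together through PTF1, a complex that includes PTF1A and RBPJL and binds an E-box beside a TC-box. The letters of both motifs were therefore searched in the 250 bases before the start site, taken from RefSeq on GRCm38.p6, and 9 of the 10 genes had an entry. The motifs were CACCTG or CAGCTG for the E-box and TTCCC for the TC-box, on both strands. An E-box was present in 7 of the 9 windows, a TC-box in 7, and both within 30 bases of each other in 4. Of 32851 windows of all genes, 27.7% held the E-box, 56.2% the TC-box and 5.63% both within that distance. The 4 stretches in which both stood that close are shown, with the motifs in capitals, where GGGAA is TTCCC read on the other strand.
Cel, chr2:28563451-28563501, minus strand: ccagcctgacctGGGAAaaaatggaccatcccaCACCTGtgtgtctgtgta
Prss2, chr6:41521586-41521624, plus strand: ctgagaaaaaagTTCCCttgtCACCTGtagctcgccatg
Ctrb1, chr8:111691188-111691227, minus strand: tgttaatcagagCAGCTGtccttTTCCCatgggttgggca
Cela1, chr15:100688002-100688041, minus strand: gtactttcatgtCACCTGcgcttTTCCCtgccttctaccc
The motifs lay 16 bases apart in Cel, 4 in Prss2 and 5 in both Ctrb1 and Cela1. These are matches of letters and not measured binding sites.

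The 10 genes together took from 0.00128% to 0.910% of the read pairs on genes, a 713-fold range over the 21 libraries. In RD islets the lowest, median and highest share was 0.00958%, 0.0458% and 0.910%. In HFD islets these values were 0.00174%, 0.0824% and 0.624%. In HFD-O304 islets they were 0.00128%, 0.119% and 0.292%. The 3 groups overlapped over most of this range, and the lowest library of HFD and of HFD-O304 islets lay below all of RD. RD replicates 6 and 7 and HFD replicate 1 carried the most (0.910%, 0.662% and 0.624%), while HFD replicate 2 and HFD-O304 replicate 1 carried the least. In these 2 libraries the 10 genes had only 765 and 615 read pairs. At counting error alone, the share of HFD-O304 replicate 1 was known to between 0.00118% and 0.00138% (95% Wilson interval), so the spread between libraries was far wider than the counting error within one.

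Fewer acinar cells and less RNA per acinar cell cannot be told apart in these bulk samples. What can be read is that the 10 genes rose and fell together from library to library, as the plot of normalized counts shows.

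**Figure D1:**
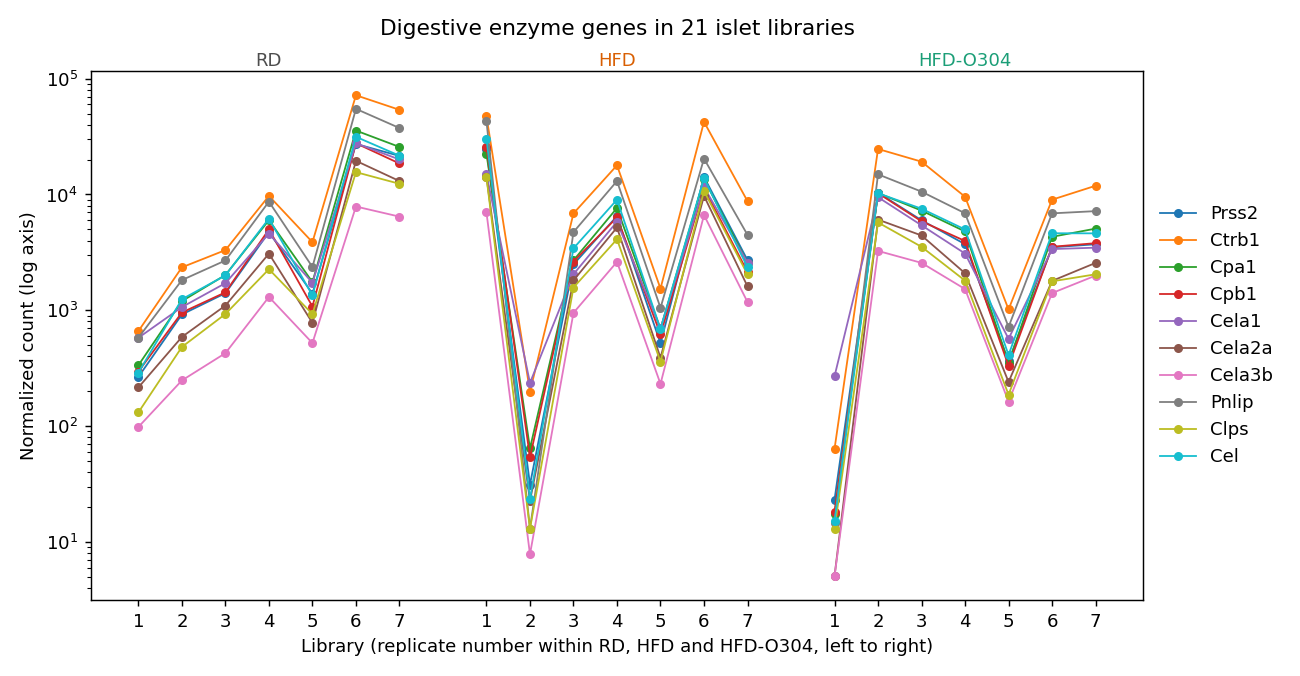
Normalized counts (count divided by the size factor of the library, log axis) of the 10 digestive enzyme genes in each of the 21 libraries, with lines joining the libraries of a group. The lines run nearly parallel from library to library, except that Cela1 stays above 200 in HFD replicate 2 and HFD-O304 replicate 1, where most of the others fall below 70. Cela2a and Cela3b share the lowest point in HFD-O304 replicate 1.

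Among the 13216 genes whose normalized counts averaged 50 or more, the 10 genes were among the most variable within groups. The SD of log2(normalized count + 1) around the group means was highest of all for Pnlip, at 3.33. Cel ranked 4, Cela2a 6, Cela3b 8, Clps 10, Prss2 12, Cpa1 15, Cpb1 16 and Ctrb1 22, and Cela1 was the least variable of the 10, at rank 36 with an SD of 2.05. The median SD of all 13216 genes was 0.158. The normalized count of Pnlip ran from 13 in HFD replicate 2 to 54888 in RD replicate 6, a 4221-fold range. That of Cela1 ran from 236 in HFD replicate 2 to 27680 in RD replicate 6, a much narrower range.

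The trypsin and chymotrypsin precursor genes overlapped widely between the groups. Prss2, the trypsin precursor, had normalized counts from 266 to 27309 in RD (median 1405), from 31.2 to 24541 in HFD (median 2707) and from 23.1 to 10363 in HFD-O304 islets (median 3715). Ctrb1, the chymotrypsin precursor, ran from 661 to 71943 in RD (median 3873), from 199 to 47451 in HFD (median 8757) and from 63.5 to 24718 in HFD-O304 islets (median 9562). Both genes had their highest value in RD and their highest median in HFD-O304 islets.

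The carboxypeptidases followed the same course. Cpa1 ran from 335 to 35657 normalized counts in RD (median 2016), from 64.2 to 22487 in HFD (median 2699) and from 17.3 to 10290 in HFD-O304 islets (median 4794). Cpb1 ran from 296 to 27702 in RD (median 1429), from 53.8 to 25906 in HFD (median 2636) and from 18 to 10262 in HFD-O304 islets (median 3797). The order of the group medians again went against the order of the highest values.

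The elastase genes differed in how far they fell. Cela2a ran from 216 to 19536 in RD (median 1099), from 22.5 to 14233 in HFD (median 1812) and from 5.05 to 6069 in HFD-O304 islets (median 2089). Cela3b ran from 98.2 to 7872 in RD (median 521), from 7.80 to 7004 in HFD (median 1178) and from 5.05 to 3255 in HFD-O304 islets (median 1525). Cela1 ran from 579 to 27680 in RD (median 1727), from 236 to 14965 in HFD (median 2581) and from 269 to 9478 in HFD-O304 islets (median 3377). The lowest value of Cela1 in each group thus lay well above those of Cela2a and Cela3b, while the medians and highest values of Cela1 and Cela2a were closer.

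For the lipid-digesting genes, Pnlip ran from 580 to 54888 in RD (median 2693), from 13 to 42945 in HFD (median 4734) and from 14.4 to 14930 in HFD-O304 islets (median 6884). Clps ran from 131 to 15594 in RD (median 928), from 13 to 14105 in HFD (median 2042) and from 13 to 5734 in HFD-O304 islets (median 1804). Cel ran from 289 to 31493 in RD (median 2001), from 23.4 to 30341 in HFD (median 3428) and from 15.2 to 10246 in HFD-O304 islets (median 4626). In all 10 genes the values of the 3 groups overlapped.

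Compared per kilobase of exon (RPKM), Ctrb1 had the highest median level over the 21 libraries, at 289, and Cela3b the lowest, at 20.5. Between them came Prss2 (126), Pnlip (87.7), Clps (85.4), Cpa1 (72.3), Cel (64.6), Cela1 (37.5), Cpb1 (31.6) and Cela2a (30.6). Ctrb1 exceeded Prss2, and Prss2 exceeded Pnlip, in 21 of 21 libraries. For 2 pairs of neighbours the order within libraries went against that of the medians, since Pnlip exceeded Clps in only 6 libraries and Cpb1 exceeded Cela2a in only 3. Cel exceeded Cela1 in 15 libraries. The other neighbours in this order kept it in 19 or 20 libraries.

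Some of these levels rest on reads that the counting could split. Prss2 lies among other trypsinogen genes such as Try4 and Try5, and read pairs that matched more than 1 place were not counted. Cela2a (chromosome 4, 141814962 to 141826160 on GRCm38) lies within the annotated span of Ctrc on the same strand, and Casp9 overlaps it on the other. Ctrb1 and Clps each hold an annotated miRNA gene (Mir7076 and Mir6969), and an antisense gene, Gm13381, overlaps Cel.

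HFD was first compared with RD without regard to how much acinar RNA a library held. None of the 10 genes passed an adjusted p under 0.01 in edgeR's quasi-likelihood test, against 3.54% of the 27229 genes tested, and none had an unadjusted p under 0.05. DESeq2 called none as well, with 0 at an unadjusted p under 0.05 and a smallest adjusted p of 0.701. The median log2 fold change of the 10 genes was -0.21, beside -0.0044 over all genes tested, and 1 of the 10 was above 0. Each estimate was wide. Cela3b, the only positive one, was at 0.13 with a 95% interval from -1.77 to 2.02, and Cela1, the lowest, was at -0.61 with an interval from -2.28 to 1.06.

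For HFD-O304 against RD the count was again 0 of 10, against 1.31% of all genes tested, and 0 had an unadjusted p under 0.05 in edgeR or in DESeq2 (smallest DESeq2 adjusted p 0.5). The median log2 fold change was -1.10, and it was below 0 for all 10 genes, from -1.21 in Pnlip to -0.65 in Cela3b. The interval of Pnlip ran from -3.30 to 0.88. For HFD-O304 against HFD the count was 0 of 10, against 11.9% of all genes tested, with 0 at an unadjusted p under 0.05 in either tool (smallest DESeq2 adjusted p 0.49). The median was -0.84, with a range from -1.13 in Clps to -0.56 in Cela1, and the interval of Clps ran from -3.15 to 0.89. These last 2 comparisons share the HFD-O304 libraries.

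The direction of these medians turned between sets of replicates in both comparisons with RD and was kept in HFD-O304 against HFD. Replicates 1 to 4 carry library numbers that run group by group, and those of replicates 5 to 7 alternate between the groups. In HFD against RD, the median log2 fold change of the 10 genes was 2.14 in replicates 1 to 4 taken alone and -1.61 in replicates 5 to 7. In HFD-O304 against RD it was 1.33 and -2.69. In HFD-O304 against HFD it was -0.77 and -1.08. No member passed the threshold within either set. RD replicates 6 and 7, which carried the most acinar RNA, belong to the second set.

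The shared movement was then measured. A library's acinar level was taken as the mean log2 CPM of 16 other acinar secretory genes, none of them among the 10, and entered as a covariate beside the 3 groups. All 10 genes followed it, with an adjusted p of at most 1.99e-16 in edgeR's quasi-likelihood test, against 0.228% of the 27229 genes tested, which is 62 genes. The 16 covariate genes themselves are among the genes tested. The slope, in log2 units of a gene per log2 unit of acinar level, was 1.08 ± 0.018 (SE) for Prss2, 1.05 ± 0.024 for Cpa1 and 1.10 ± 0.042 for Pnlip. For 9 genes it lay between 1.03 and 1.10. Cela1 alone had a slope below 1, at 0.76 ± 0.032, with a 95% interval from 0.70 to 0.83 that overlapped none of the others.

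**Figure D2:**
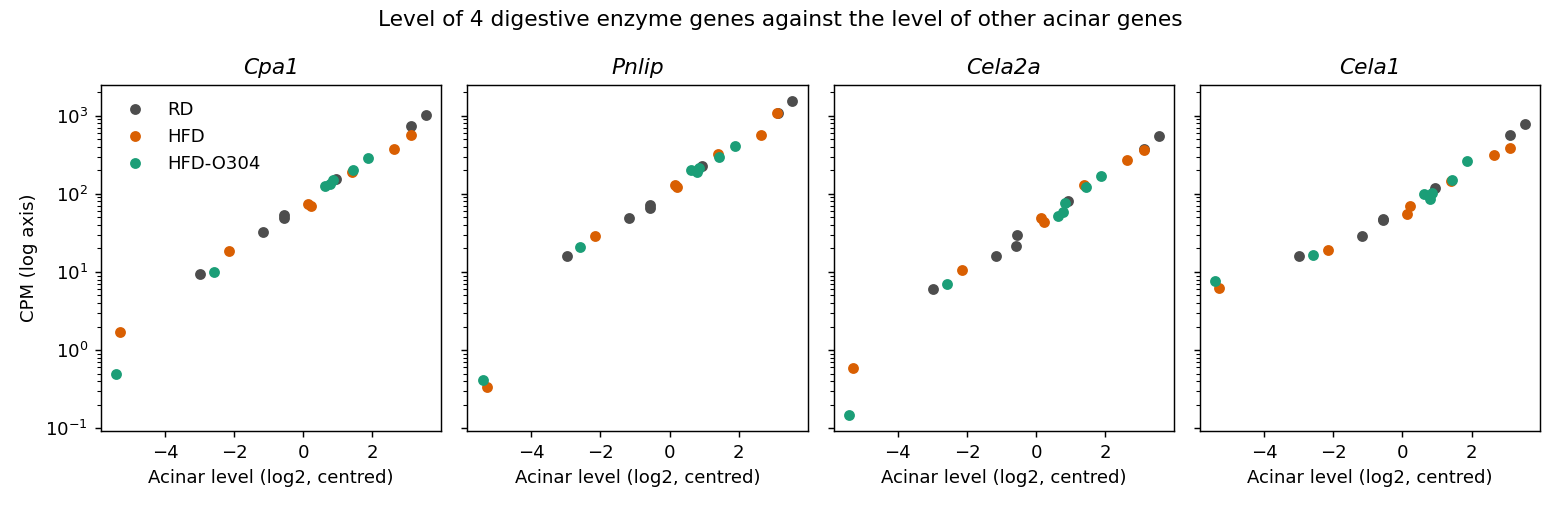
CPM (log axis) of Cpa1, Pnlip, Cela2a and Cela1 in each library against its acinar level (mean log2 CPM of 16 other acinar genes, centred at 0), with 1 point per library. Points of the 3 groups lie on 1 line in Cpa1, Pnlip and Cela2a apart from the 2 lowest libraries, and the line of Cela1 is less steep (slope 0.76), ending near 7 CPM where the others end below 2.

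Cela1 (chromosome 15, 100674421 to 100687921 on GRCm38, minus strand) thus departed from the shared pattern at the low end. HFD-O304 replicate 1 held 373 read pairs of Cela1, beside 24 of Cpa1, 7 of Cela2a and 7 of Cela3b. HFD replicate 2 held 272 of Cela1, beside 74 of Cpa1, 26 of Cela2a and 9 of Cela3b. The ratio of Cela1 to Cpa1 was 15.5 in the first and 3.68 in the second, and between 0.645 and 1.73 in the other 19 libraries. As a share of the read pairs of the 10 genes, Cela1 took 60.7% and 35.6% in these 2 libraries, 16.8% in RD replicate 1, and 6.13% to 13.1% in the other 18. In CPM it did not fall below 6.18. Without the library of lowest acinar level in each group, a choice made after the data were seen, its slope was 0.91 ± 0.026, and those of the other 9 genes were 1.0 to 1.04. Its slope was 0.69 in replicates 1 to 4 alone and 0.88 in replicates 5 to 7 alone.

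**Figure D3:**
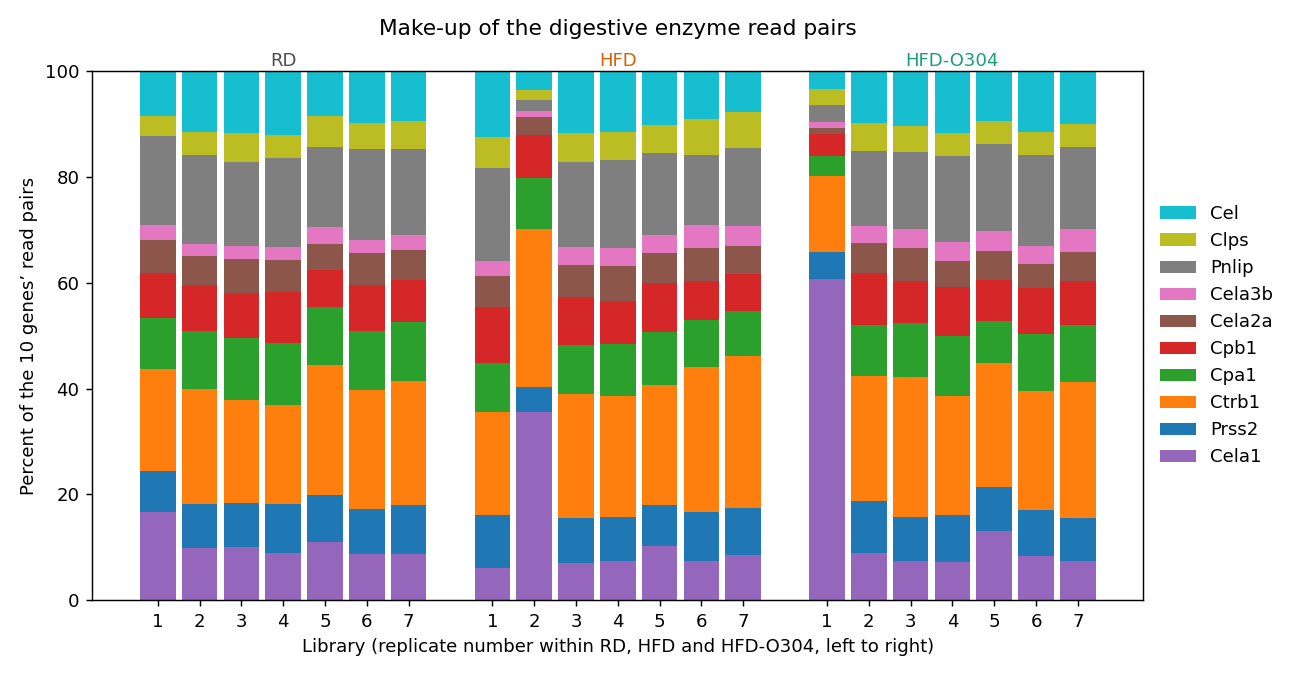
Share of each of the 10 genes in their summed read pairs, as stacked bars from 0 to 100% for each library. Cela1, at the foot of each bar, takes 60.7% in HFD-O304 replicate 1 and 35.6% in HFD replicate 2, and the make-up of the remaining libraries is alike.

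Pnlip departed in the other direction in 1 of these libraries. It exceeded Cpa1 in 19 libraries, by 1.34 to 2.06 times in read pairs. In HFD replicate 2 there were 15 read pairs of Pnlip (95% Poisson interval 8.4 to 24.7) beside 74 of Cpa1 (58.1 to 92.9), a ratio of 0.203. In HFD-O304 replicate 1 there were 20 beside 24, where the intervals overlap. Cel showed a smaller gap of the same kind in HFD replicate 2, with 27 read pairs, a ratio to Cpa1 of 0.365 against 0.767 to 1.35 in the 19. Ctrb1 kept its ratio to Cpa1 more closely, at 3.09 in HFD replicate 2 and 3.67 in HFD-O304 replicate 1 beside 1.62 to 3.42 elsewhere. These intervals cover counting error only.

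Relative to the other 9, Prss2 was the steadiest of the genes. The SD of its log2 ratio to their mean was 0.136 within groups, followed by Cpb1 (0.236) and Cpa1 (0.244), with Pnlip at 0.655 and Cela1 at 1.20. Without the lowest library of each group Prss2 was still the steadiest, at 0.117, and Cela1 still the least steady, at 0.275, while Pnlip came down to 0.131. In those 18 libraries the 10 genes took from 0.0126% to 0.910% of read pairs, and their proportions to each other changed far less than their level.

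At equal acinar level, 0 of 10 genes were called in HFD against RD at an adjusted p under 0.01, against 3.60% of all genes tested, with 3 at an unadjusted p under 0.05. Cela3b had the largest difference, at a log2 fold change of 0.44 ± 0.12 (SE, adjusted p 0.0236 in edgeR). Ctrb1 was at 0.30 ± 0.11 (adjusted p 0.101) and Clps at 0.28 ± 0.10 (adjusted p 0.0872). In HFD-O304 against RD the count was 0 of 10, against 1.22% of all genes tested, with Cela3b at 0.43 ± 0.12 (adjusted p 0.0509) as the 1 gene at an unadjusted p under 0.05. In HFD-O304 against HFD the count was 0 of 10, against 11.7%, and Clps, at -0.36 ± 0.10 (adjusted p 0.0109), was the 1 gene at an unadjusted p under 0.05. The standard errors were 0.084 to 0.20 here, against 0.81 to 1.02 without the acinar level. The median log2 fold change of the 10 genes at equal acinar level was 0.066, -0.051 and -0.054 in the 3 comparisons. With the replicate number as a block, 1 gene passed the threshold in each comparison. Cela3b did so against RD in HFD (adjusted p 0.00348 in edgeR) and in HFD-O304 islets (0.0070), and Clps in HFD-O304 against HFD (0.00215).

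**Figure D4:**
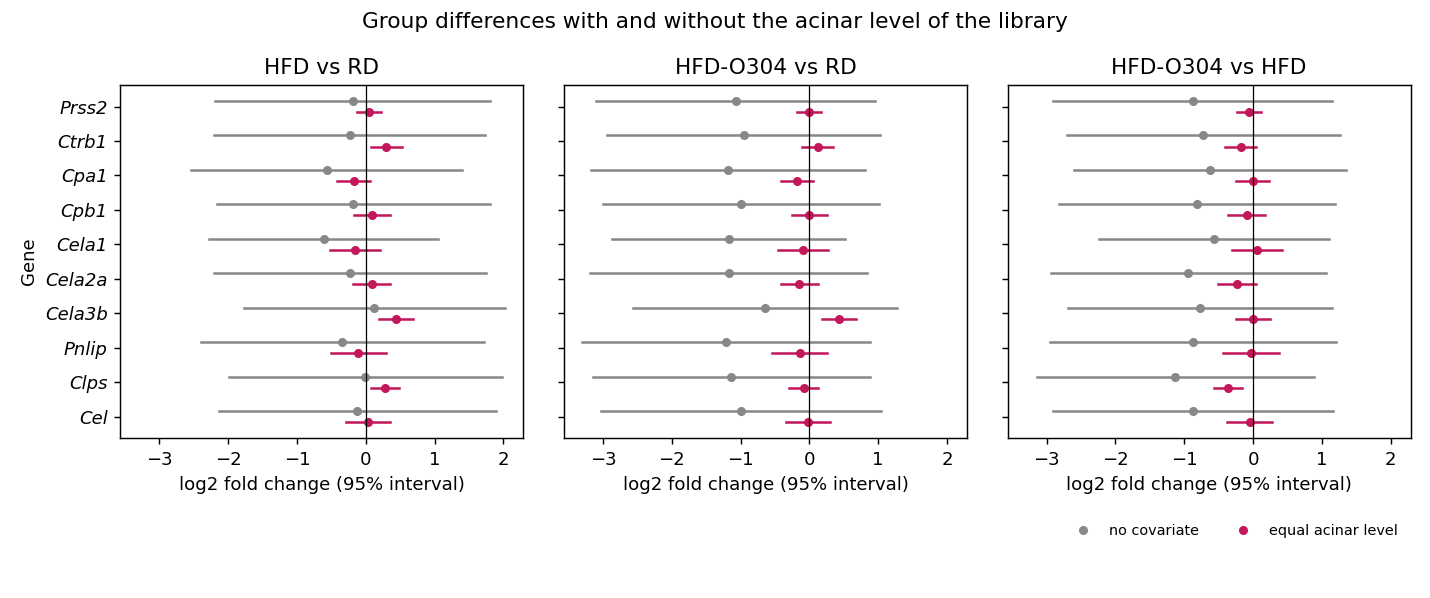
Log2 fold change of each of the 10 genes with its 95% interval in the 3 comparisons, without (grey) and with (red) the acinar level of the library in the fit. The grey intervals span several log2 units and all include 0, while the red ones are much narrower, and 5 of them exclude 0, those of Cela3b in both comparisons with RD, of Ctrb1 and Clps in HFD against RD and of Clps in HFD-O304 against HFD.

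Cela3b (chromosome 4, 137420999 to 137430540, minus strand) took 2.28% to 3.31% of the read pairs of the 10 genes in RD islets. In HFD islets it took 2.87% to 4.30% in 6 libraries and 1.18% in replicate 2. In HFD-O304 islets it took 3.09% to 4.30% in 6 libraries and 1.14% in replicate 1. Cela1 took 35.6% of these pairs in HFD replicate 2 and 60.7% in HFD-O304 replicate 1, which lowers every other gene's share there. RD replicate 5, at 3.31%, was the RD library that reached furthest into the range of the others. Without the lowest-acinar library of each group, Cela3b passed the threshold against RD in HFD (log2 fold change 0.50 ± 0.084, adjusted p 0.00148) and in HFD-O304 islets (0.49 ± 0.085, adjusted p 0.00202). Within replicates 1 to 4 its differences from RD were 0.19 and 0.23 (adjusted p 0.690 and 0.693), and within replicates 5 to 7 they were 0.51 and 0.46 (adjusted p 0.00446 and 0.0094). Leaving out HFD replicate 1 or HFD-O304 replicate 1 was enough to bring the comparison of HFD with RD past the threshold (adjusted p 0.00954 and 0.00794). Over 31 alternatives the adjusted p ran from 0.00148 to 0.868 in HFD and from 0.00202 to 0.890 in HFD-O304 islets. The highest values came with a covariate from the 5 acinar transcription factors, of which only 2 followed the acinar level, so that fit is no check at equal acinar level.

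Clps (chromosome 17, 28558149 to 28560766, minus strand) took 5.25% to 6.94% in HFD islets, apart from 1.96% in replicate 2. In HFD-O304 islets it took 4.25% to 5.44%, apart from 2.93% in replicate 1, and in RD islets it took 3.81% to 5.89%. Replicate 2 of HFD-O304, at 5.44%, was the one that overlapped the 6 HFD libraries. Without the lowest-acinar libraries the difference of HFD-O304 from HFD was -0.39 ± 0.081 (adjusted p 0.00156). It was -0.20 within replicates 1 to 4 (adjusted p 0.327) and -0.57 within replicates 5 to 7 (adjusted p 1.6e-05). It passed the threshold without HFD replicate 1 (adjusted p 0.00784), HFD replicate 2 (0.00146) or HFD-O304 replicate 2 (0.00426), and over 31 alternatives the adjusted p ran from 1.6e-05 to 0.748, the last again with the factor covariate, and the difference was below 0 in each. Pnlip, the lipase that colipase assists, was at -0.033 ± 0.20 in the same comparison, with an interval from -0.44 to 0.37.

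**Figure D5:**
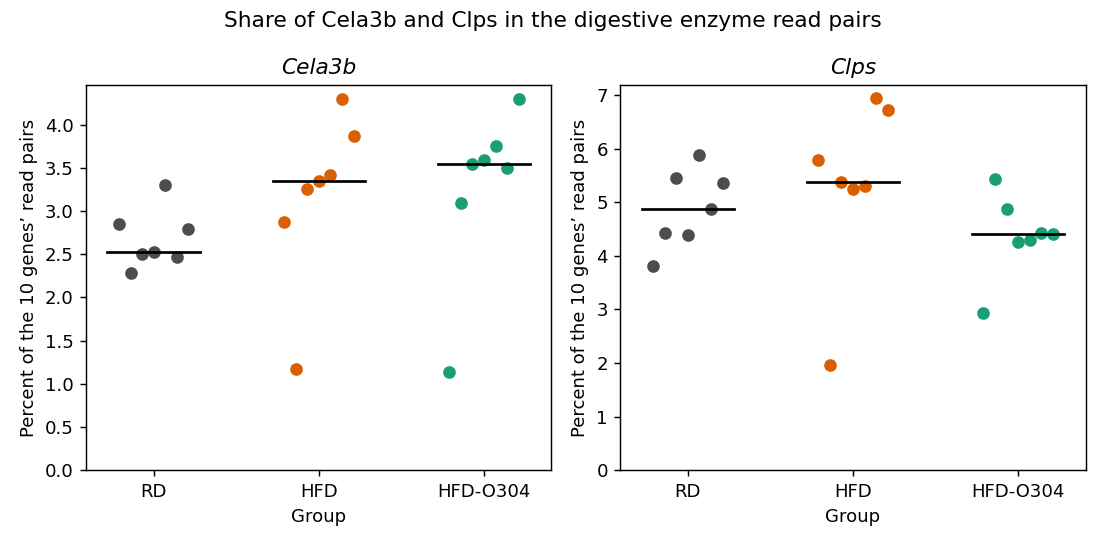
Share of Cela3b (left) and Clps (right) in the read pairs of the 10 genes, with 1 point per library, replicates 1 to 7 from left to right within a group, and a bar at the median. Cela3b has medians of 2.53% (RD), 3.35% (HFD) and 3.55% (HFD-O304), and Clps 4.88%, 5.38% and 4.41%, with the 2 libraries of fewest acinar read pairs at the foot of each panel. In these 2 libraries Cela1 takes 35.6% (HFD replicate 2) and 60.7% (HFD-O304 replicate 1), which lowers the share of every other gene.

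Other acinar secretory genes moved with the 10. Of 21 on a list of such genes, 0 passed the threshold without the covariate in each of the 3 comparisons. Against the acinar level 19 of the 21 passed, but 16 of them make up that level, so this count is no independent support. At equal acinar level Try5, a trypsinogen, was higher in HFD (log2 fold change 0.82 ± 0.18, adjusted p 0.00397) and in HFD-O304 islets (1.20 ± 0.18, adjusted p 0.000119) than in RD islets. Amy2b, which the annotation used here lists as an unprocessed pseudogene of the amylase family, was lower than in RD in HFD (-1.06 ± 0.15, adjusted p 7.7e-05) and in HFD-O304 islets (-1.30 ± 0.15, adjusted p 5.2e-06). Ctrc, the chymotrypsin C gene whose span holds Cela2a, was higher in HFD-O304 than in HFD islets (0.47 ± 0.12, adjusted p 0.00462). These 3 belong to the 16, and trypsinogens and amylases have close copies among which reads may be split.

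The 2 parts of PTF1 named above had few reads. Ptf1a had at most 11.3 normalized counts and a median of 0.882 over the 21 libraries, and Rbpjl, the partner in PTF1, at most 64.5 with a median of 6.03. Both rose with the acinar level (slopes 0.79 ± 0.16 and 0.95 ± 0.088). Bhlha15, a secretory cell factor, had 2958 to 6925 normalized counts and a slope of -0.031 ± 0.022, so it did not follow the enzymes. At equal acinar level Bhlha15 was lower (-0.57 ± 0.13, adjusted p 0.00208) and Nr5a2 higher (0.64 ± 0.15, adjusted p 0.00199) in HFD-O304 than in HFD islets. In that fit 11.7% of all genes tested were called. Without the covariate 1 of the 5 acinar transcription factors was called lower and 0 higher, against 11.9% of all genes tested.

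Genes were ranked by the correlation of deviations from the group means over the 21 libraries. Outside the 10 and the list of other acinar secretory genes, the gene most like the mean of the 10 was 2210010C04Rik (Pearson r 0.996). Tff2, a trefoil peptide, followed at 0.988, Serpini2, a pancreatic serpin, at 0.979, Reg1 at 0.963, 1810028F09Rik at 0.962, Dmbt1 at 0.960 and Pdia2, a pancreatic disulfide isomerase, at 0.926. Reg3d (0.894), Slc28a2 (0.807) and Msrb3 (0.749) completed the 10 nearest of 13190 genes. The 5 at the other end were Gtf2h4 (-0.825), Sall4 (-0.728), Zfp873 (-0.695), Dtx2 (-0.682) and Slc39a8 (-0.653). Only 7 genes reached an r of 0.9. All values of a library share its depth and its 150 islets, and the libraries of lowest acinar level weigh heavily in each r.

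Markers of other cell types did not pass the test against the acinar level. The count was 0 of 8 duct, 0 of 7 endocrine, 0 of 5 endothelial, 0 of 6 stromal, 0 of 7 immune and 0 of 5 red blood cell genes. Of all 27229 genes tested 0.228% passed, and at that share lists this short would mostly give 0. The duct list summed to 232 to 273 CPM in RD, 258 to 365 in HFD and 255 to 326 in HFD-O304 islets. Without the covariate, 4 of its 8 genes were called higher in HFD-O304 than in HFD islets, Krt19 by 1.15 ± 0.20 (log2, adjusted p 8.1e-05). In that comparison 11.9% of all genes tested were called. Of the defining duct genes, Cftr had a median of 7.12 and Onecut1 of 2.20 normalized counts. The part of duct cells in the differences of Cela3b and Clps was not tested.

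The Reg genes, secreted proteins that acinar cells raise under stress, set HFD replicate 1 apart from every other library. Reg2 had 6743 normalized counts there, and at most 341 in the other 6 HFD libraries and 10.5 in RD. Reg3b had 5206, against at most 173 in the other HFD libraries and 3.83 in RD. The 10 digestive genes of HFD replicate 1 stood no higher than those of RD replicate 6, where Reg2 was at most 10.5. Without the covariate 4 of the 6 Reg genes were called higher in HFD than in RD islets, against 3.54% of all genes tested. In HFD-O304 against HFD islets 4 were called lower, against 11.9% of all genes tested. Without HFD replicate 1 these counts were 0 and 2. At equal acinar level they were 4 and 1 with that library and 2 and 1 without it. With all libraries, 3.60% and 11.7% of all genes tested were called in these 2 fits.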

How the data were processed

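RNA of 21 islet samples was sequenced, 7 each from RD, HFD and HFD-O304 mice. The authors aligned read pairs to GRCm38 with STAR (Ensembl 96) and deposited its raw count of read pairs per gene. The deposited counts leave out pairs aligned to more than 1 place or gene. The reverse-strand counts were used here, since they were 28.8 to 36.3 times those of the other strand. Counts for paralogs and overlapping genes are therefore partial. All 55536 identifiers matched GENCODE M21.

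Genes with a row sum of at least 10 were tested in edgeR 4.0.16 (TMM, quasi-likelihood, all 3 groups in 1 fit) in R 4.3.3, and called at a Benjamini-Hochberg adjusted p under 0.01 over all genes. Adjusted p-values of single genes come from edgeR unless DESeq2 (1.42.0) is named. The acinar level was the mean log2 CPM (prior count 1) of 16 of 21 listed acinar genes averaging 50 or more normalized counts, centred. Normalized counts are counts over DESeq2 size factors. In simulated counts for HFD against RD with 200 of 27229 genes changed, 157 were recovered without and 161 with the covariate. These recoveries do not give the power for the 10 genes, whose SD within groups was 2.05 to 3.33 (median of the 13216 genes 0.158). In this comparison their standard errors without the covariate were 0.81 to 1.00 log2 units. The samples are separate pools of mice as labelled. Depth was 13809266 read pairs on genes in the shallowest library, and single counts carry Poisson or Wilson 95% intervals for counting error only. The most alike genes were ranked by Pearson correlation of log2(normalized count + 1) deviations from group means. The 10 genes, the lists and the tests were chosen with earlier results of these data known. Alternatives covered test, normalization, filter, strand, samples, replicate block, library set, covariate and threshold. Tables and figures used Python 3.11.15, numpy 2.4.6, pandas 2.3.3, scipy 1.17.1 and matplotlib 3.10.9. ChIP-seq was not analysed here.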

Additional observations from a re-analysis of the deposited data

Results flagged for a closer look

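Within each group of 7, a listed acinar, acinar factor or Reg gene was picked out where 1 library lay far from the other 6 by Dixon's test at its 95% critical value. In all, 11 pairs of gene and group were picked out among 34 genes tested in each of 3 groups. Chance picks out about 1 in 20 where values are normally distributed, which need not hold for these counts on a linear scale. None was one of the 10 digestive enzyme genes. On that scale a library far below the others can hardly be picked out, so this does not bear on the low libraries. HFD replicate 1 accounted for 7, all Reg genes or Cuzd1. There Reg1 had 7695 normalized counts (at most 2200 in the other HFD libraries), Reg2 had 6743 (at most 341), Reg3a had 1789 (at most 34.9), Reg3b had 5206 (at most 173), Reg3d had 788 (at most 55.7), Reg3g had 1179 (at most 81.9) and Cuzd1, an acinar granule protein, had 732 (at most 274).

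The remaining 4 rested on a few reads. They were Reg2 in HFD-O304 replicate 3 (6.85 normalized counts, at most 2.65 in the others), Reg3b in HFD-O304 replicate 2 (7.84, at most 1.76), Reg3g in RD replicate 5 (0.865, the others at 0) and Reg3g in HFD-O304 replicate 4 (3.53, the others at 0).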

How the results depend on the processing

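Without the acinar level, 0 of the 10 genes were called in each comparison under every alternative run. All 10 were called for the acinar level under every alternative that held that term. At equal acinar level, the count of 0 became 1 in HFD against RD and in HFD-O304 against HFD at an adjusted p under 0.05. It became 1 in all 3 comparisons with the replicate number as a block, without the lowest-acinar library of each group and in replicates 5 to 7 only, and the last 2 were chosen after the data were seen. Leaving out each library in turn gave 0 to 1 in HFD against RD and in HFD-O304 against HFD, and 0 in HFD-O304 against RD. The gene was Cela3b against RD and Clps in HFD-O304 against HFD. No value past the threshold changed sign. The covariate from acinar transcription factors is no check at equal acinar level, since only 2 of its 5 genes followed that level. Of 930 values of single genes at equal acinar level, 16 passed the threshold where the reported fit did not, and no value that changed sign was called in either fit. The cause was not tested.

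Same-numbered libraries correlated at 0.199, 0.294 and 0.137 on average in their deviations from the group means, with 4, 6 and 5 of 7 pairs over 0.1 in HFD against RD, HFD-O304 against RD and HFD-O304 against HFD. In these, 6, 5 and 5 of 14 libraries correlated best with their own number, so the numbers were not taken as pairs. With the block, the medians were -0.12, -0.40 and -0.22 without the acinar level.

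Over all genes, DESeq2 called 1758 in HFD against RD, where edgeR called 963, and 727 in HFD-O304 against RD, where edgeR called 356. The median log2 fold change of the 10 genes ranged from -0.90 to 0.55 in HFD against RD as single libraries were left out. In HFD replicate 2 and HFD-O304 replicate 1 the small number of acinar read pairs limits the values, with counts as low as 7. These libraries were not shallow, with 44041180 and 48191600 read pairs on genes.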
